A study of Mus musculus with 10 samples.

Results

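Metallothioneins and zinc transporters were examined in the jejunum, the middle stretch of the small intestine, of newborn mice. The genes were chosen by symbol: both metallothioneins that are active in most tissues (Mt1 and Mt2), 4 transporters of the ZIP family (Slc39a4, Slc39a5, Slc39a8 and Slc39a14) and 3 of the ZnT family (Slc30a1, Slc30a2 and Slc30a10). All 9 were among the 24062 genes counted, and all 9 were among the 17632 genes that reached 5 counts in at least 1 library and were tested. RNA-seq was performed on jejunum of C57BL/6 mice at postnatal day 5. There were 5 libraries from wild-type (WT) mice and 5 from KSR23 mice, in which the cytokine IL-23 is made by keratinocytes. That strain came from a cross of R23 mice, which carry the IL-23 transgene, with mice whose cre is under a human keratin 14 promoter, so the transgene is aimed at skin and other stratified epithelia and not at the jejunum itself. The study calls the libraries of a group biological replicates, and the labels name no animal behind each.

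Zinc enters the cytoplasm through ZIP proteins and leaves it, to the outside or into vesicles, through ZnT proteins. Metallothioneins are small cysteine-rich proteins that bind zinc and copper. When zinc in the cell is high, the transcription factor MTF-1 binds metal response elements and raises transcription of Mt1, Mt2 and Slc30a1, so that these transcripts are commonly read as a gauge of cellular zinc. Glucocorticoids and inflammatory signals also raise metallothioneins, and IL-6-type cytokines are known to raise Slc39a14 in liver.

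Library totals were 25.5 to 32.0 M counts in WT and 31.2 to 60.9 M in KSR23, and 3 counts, the limit that a count of 0 allows, corresponded to 0.0427 to 0.119 counts per M counts (CPM). Libraries differed within each group along an axis tied to base composition. A GC contrast, the median deviation from the group mean of log2 CPM in 1771 genes above 55% GC minus that in 2527 genes below 45% GC, was below 0 in 4 libraries (WT replicates 1 and 5, KSR23 replicates 3 and 5) and above 0 in the other 6. Replicates 4 and 5 of both groups also lay between the other libraries. They were the lowest or highest library of their group at 8.54 to 18.4% of 9737 genes, where 40% would be found if all libraries were alike, and the other 6 libraries were at 45.7 to 75.6%. For this reason the fits were repeated with replicates 1 to 3 alone and with the 6 and the 4 libraries apart. Marker sums differed between the groups as well. The 6 enterocyte markers summed to 10400 to 17600 CPM in WT and 5700 to 9430 CPM in KSR23, with Fabp2 and Lct called lower and Cdh1 higher. Without Fabp2, the most abundant of them and left out after its values were seen, the other 5 summed to 1570 to 5000 CPM in WT and 2010 to 5460 CPM in KSR23 and overlapped. The 6 Paneth cell markers summed to 270 to 456 CPM in WT and 889 to 1960 CPM in KSR23, with Lyz1, Mmp7 and Itln1 higher and Ang4 lower. The paper describes the newborn mouse gut as lacking Paneth cells, so this sum is not read as a number of such cells. The 12 acinar markers summed to 76.5 to 127 CPM in WT and 1.77 to 3.67 CPM in KSR23, with 8 of the 10 tested lower and Amy2a5 at 0 in every library. The 9 genes of the hepatocyte list summed to 3.85 to 15.0 CPM in WT and 37.3 to 62.0 CPM in KSR23 but moved in both directions: Fga, Fgb and Hpx were called higher, and Alb (-2.16 on the log2 scale, adjusted p = 0.0439), Serpina1c and Cyp2e1 lower. The sums of the immune, muscle, proximal and distal lists overlapped between groups. In whole tissue, fewer cells of a type and less RNA per cell cannot be told apart, and the part of cell make-up in the results below was not tested.

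The annotated start sites of the 3 genes that serve as the classical gauge of zinc are shown first. No result below depends on these windows. Each window runs from 250 bases before to 50 after a RefSeq transcript start (GRCm38.p6), 5′ to 3′ on the strand of the gene, and capitals mark the core of the metal response element, TGCACNC or TGCGCNC on either strand. The windows are chr8:94178839-94179138 (plus strand) for Mt1, chr8:94172368-94172667 (plus strand) for Mt2 and chr1:191906531-191906830 (plus strand) for Slc30a1.
Mt1: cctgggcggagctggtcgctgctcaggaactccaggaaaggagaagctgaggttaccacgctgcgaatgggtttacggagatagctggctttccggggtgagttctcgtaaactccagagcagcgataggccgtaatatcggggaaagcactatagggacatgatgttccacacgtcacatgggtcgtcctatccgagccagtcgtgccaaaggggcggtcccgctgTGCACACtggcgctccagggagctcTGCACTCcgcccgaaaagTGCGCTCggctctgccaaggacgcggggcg
Mt2: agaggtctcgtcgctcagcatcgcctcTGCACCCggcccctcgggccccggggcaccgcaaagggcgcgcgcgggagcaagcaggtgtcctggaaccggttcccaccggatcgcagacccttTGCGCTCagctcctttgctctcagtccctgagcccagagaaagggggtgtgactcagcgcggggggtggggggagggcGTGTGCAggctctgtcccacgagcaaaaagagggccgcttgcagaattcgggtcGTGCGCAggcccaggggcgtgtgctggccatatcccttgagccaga
Slc30a1: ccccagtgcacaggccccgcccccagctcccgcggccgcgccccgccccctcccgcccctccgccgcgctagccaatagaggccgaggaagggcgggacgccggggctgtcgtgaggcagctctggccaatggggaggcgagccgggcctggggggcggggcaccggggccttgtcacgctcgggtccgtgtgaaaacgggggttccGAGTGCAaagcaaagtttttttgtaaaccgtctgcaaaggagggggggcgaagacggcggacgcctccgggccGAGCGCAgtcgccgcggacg
The Mt1 window held 3 matches, which began 23 bases before and 3 and 21 bases after the start. The Mt2 window held 4, which began 223, 128 and 50 bases before and 5 bases after the start, and the Slc30a1 window held 2, which began 43 bases before and 31 after it. Among all 32851 promoter windows of this length, 25.7% held at least 1 such match, 7.11% at least 2, 1.97% at least 3 and 0.517% at least 4. RefSeq windows were matched for 7 of the 9 genes. Slc30a2 held 2 matches and Slc30a10 held 3, of which 2 overlap on opposite strands, and Slc39a5 and Slc39a8 each held 1 match in 1 of their 2 windows. A STAT-type site, TTCNNNGAA, was found in none of the 9 windows (8.30% of all windows hold one). The core of the antioxidant response element, TGACNNNGC, was found once in Mt2, once in Slc30a1, once in 1 window of Slc39a8 and in 2 copies in 1 window of Slc39a5 (12.4% of all windows). These matches are a description of letters and do not show binding. Each window is set on 1 annotated start, and sequence outside the windows, including that around any other start, was not examined.

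Per length of transcript, Mt1 was the most abundant of the 9 genes in both groups, and the exporters Slc30a1 and Slc30a10 were the least abundant. The scale is CPM per kilobase of the principal annotated transcript. In WT, the level of Mt1 was 791 ± 174 CPM per kb (SD, n = 5), followed by Slc39a4 at 194 ± 44.0, Mt2 at 146 ± 38.1 and Slc39a5 at 62.4 ± 5.34 CPM per kb. Slc30a2 came next at 21.2 ± 5.17 CPM per kb, then Slc39a14 at 17.4 ± 2.55, Slc39a8 at 12.3 ± 5.19, and Slc30a1 and Slc30a10 at 1.76 ± 0.0708 and 1.76 ± 0.581 CPM per kb. The ranges of neighbours in this order overlapped for Slc39a4 and Mt2, for Slc30a2, Slc39a14 and Slc39a8, and for Slc30a1 and Slc30a10, and did not overlap elsewhere in WT. In KSR23 the order was Mt1 at 757 ± 200, Slc39a4 at 172 ± 41.3, Mt2 at 80.4 ± 24.7 and Slc39a5 at 69.8 ± 8.09 CPM per kb, then Slc30a2 at 35.2 ± 7.34, Slc39a14 at 18.4 ± 4.94, Slc39a8 at 9.09 ± 9.34, Slc30a10 at 1.09 ± 0.353 and Slc30a1 at 0.758 ± 0.458 CPM per kb. Mt2 and Slc39a5, which were apart in WT, overlapped in KSR23, whereas Slc39a4 no longer overlapped with Mt2, nor Slc30a2 with Slc39a14.

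**Figure D1:**
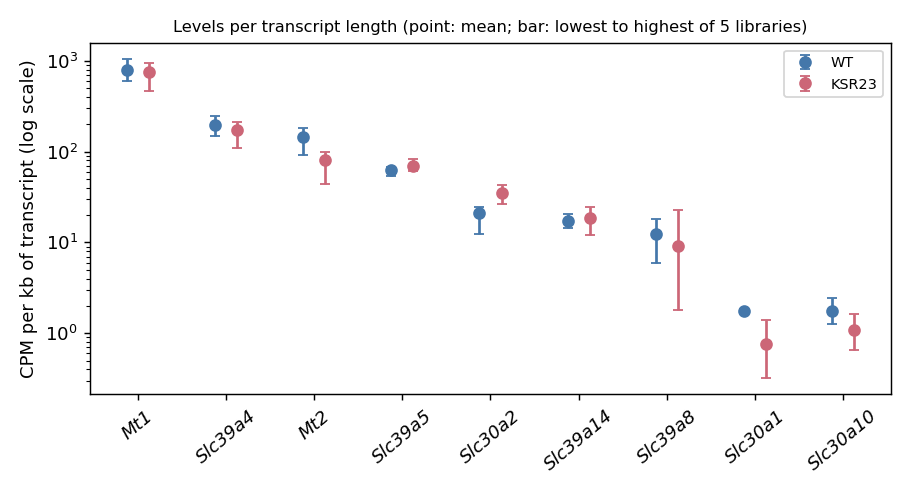
Levels of the 9 genes in CPM per kb of principal transcript (log scale), ordered by the WT mean; points are means of 5 libraries and bars run from the lowest to the highest library, WT in blue and KSR23 in red. Mt1 lies at the top at 791 CPM per kb in WT and 757 in KSR23, and Slc30a1 and Slc30a10 reach at most 2.43 CPM per kb in any library.

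In KSR23 jejunum, Slc30a1, which exports zinc across the plasma membrane, was 2.33-fold lower than in WT, and Mt2 was 1.82-fold lower, whereas Mt1 differed by less than the spread between libraries. No importer passed the test (0 of 4 by the likelihood ratio test, the quasi-likelihood test and DESeq2, and 0 at an unadjusted p under 0.05). By edgeR's likelihood ratio test at an adjusted p under 0.05, 0 of the 9 genes were called higher and 2 were called lower, where 9.73% of all tested genes were called higher and 8.76% lower. At an unadjusted p under 0.05, 1 of the 9 was higher and 3 were lower, where 15.9% and 14% of all genes were. DESeq2 called 1 higher and 2 lower, beside 10.7% and 9.95% of all genes. By the quasi-likelihood F test, 1 of the 9 was called, Slc30a1, where 15.4% of all genes were called in either direction. With replicates 1 to 3 alone, 0 of the 9 were called by the likelihood ratio test (3.36% of all genes) or by the quasi-likelihood test (0.812%). At an unadjusted p under 0.05 there were also 0 of the 9, beside 13.2% and 11.8% of all genes. The CPM ranges of the groups did not overlap for 2 of the 9, Slc30a1 and Slc30a2, where 14.4% of all genes did not overlap. The median log2 fold change of the 9 genes was -0.17, beside 0.03 for all tested genes.

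**Figure D2:**
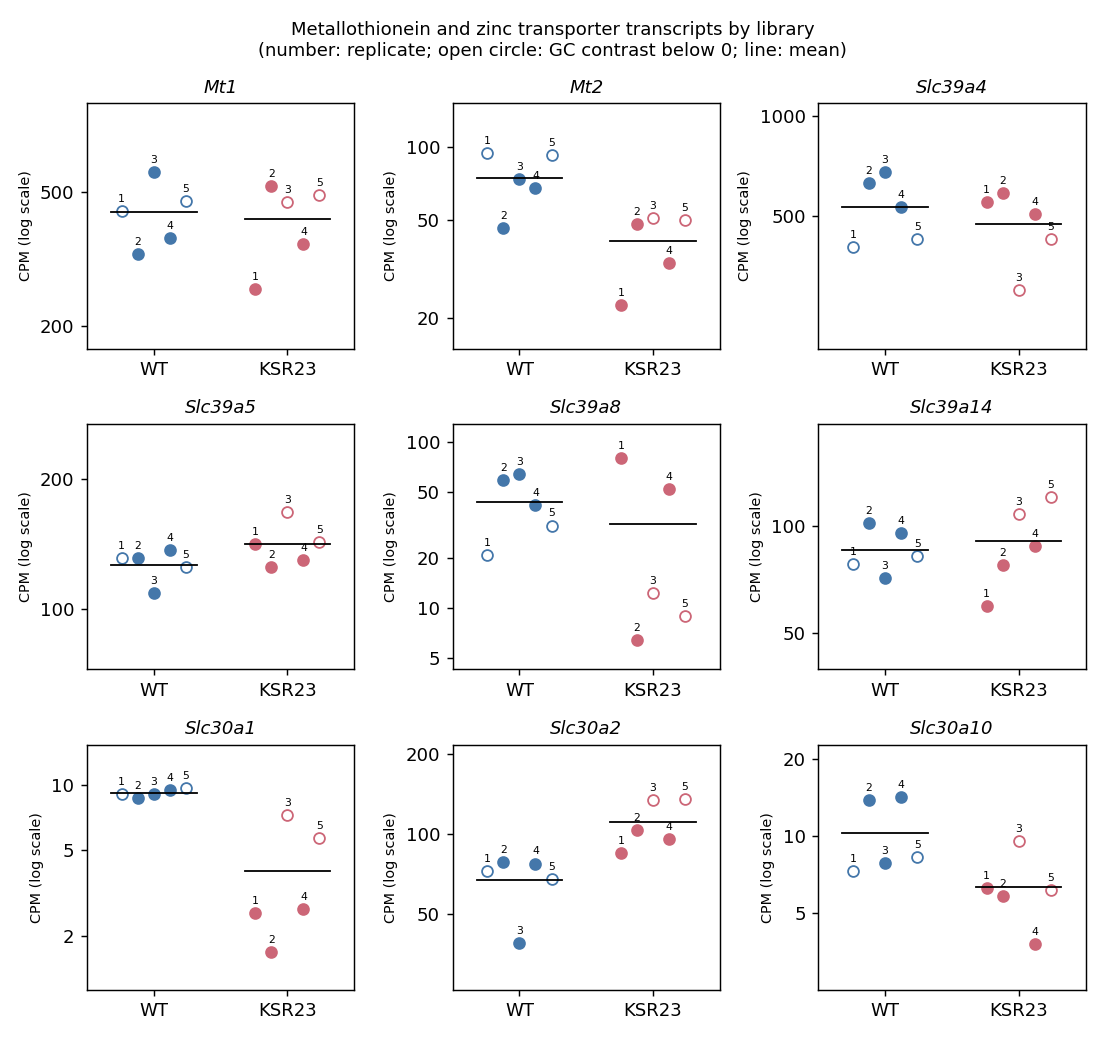
TMM-scaled CPM (log scale, own range in each panel) of the 9 genes in each library, with the replicate number above each point; lines are group means and open circles are the 4 libraries with a GC contrast below 0. The WT and KSR23 points separate for Slc30a1 and for Slc30a2, and Mt2 overlaps through WT replicate 2 at 46.4 CPM.

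Mt1 lies at chr8:94179082-94180327 (plus strand), 5513 bases beyond the end of Mt2 at chr8:94172664-94173568 (plus strand), and both genes encode the zinc-binding protein found in most cells. In the order of the replicate numbers, which all such lists follow, Mt1 was at 440, 327, 572, 364 and 469 CPM in WT and at 257, 519, 465, 349 and 489 CPM in KSR23. The groups overlapped. The means were 434 ± 95.7 and 416 ± 110 CPM (SD, n = 5), the log2 fold change of KSR23 over WT was -0.06 with a 95% interval of -0.61 to 0.48, and the adjusted p was 0.911. The sign of this small value turned with the libraries included, being 0.06 without WT replicate 3, 0.12 without KSR23 replicate 1 and 0.03 without KSR23 replicate 4.

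Mt2 was at 93.8, 46.4, 73.6, 67.7 and 92.1 CPM in WT and at 22.5, 48.4, 51.0, 33.5 and 50.2 CPM in KSR23. Of the WT libraries, replicate 2 alone fell within the KSR23 range, and KSR23 replicate 1 was the lowest of all. The means were 74.7 ± 19.5 and 41.1 ± 12.6 CPM, and the log2 fold change was -0.86 (SE 0.32, adjusted p = 0.0435). This call depended on the setting. DESeq2 (-0.90, adjusted p = 0.0238) and scaling by library totals alone (-0.98, adjusted p = 0.00739) kept it. So did the sign of the GC contrast as a covariate (-0.86, adjusted p = 0.0027). That covariate comes from deviations within each group of these same data. Its fit called 29.9% of all genes, beside 9.73% higher and 8.76% lower in the main fit. The quasi-likelihood test gave an adjusted p of 0.0549, and the replicate number as a block gave -0.88 (adjusted p = 0.144). Over the 10 fits without 1 library, adjusted p ran from 0.0268 to 0.145. The call held without WT replicate 2 or KSR23 replicate 3 and was lost without any other single library. The log2 fold change was -0.78 (adjusted p = 0.634) in replicates 1 to 3 alone, -0.76 (adjusted p = 0.12) in the 6 libraries with a GC contrast above 0 and -1.02 (adjusted p = 0.0102) in the 4 with one below 0. Of the 75-base stretches of Mt2 transcripts, 30.2% are shared with Gm45774, an antisense gene of the same locus that was not among the genes counted, so the strand of these reads cannot be told apart here.

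The balance between the neighbours does not depend on library scaling. Mt2 counts per 100 Mt1 counts were 21.3, 14.2, 12.9, 18.6 and 19.7 in WT and 8.76, 9.32, 11.0, 9.59 and 10.3 in KSR23. Each KSR23 library lay below each WT library. The means were 17.3 ± 3.63 and 9.78 ± 0.854, and the mean log2 ratio was 0.80 lower in KSR23, which is 1.74-fold (exact permutation test, two-sided, p = 0.00794, the smallest that 5 against 5 allow). Leaving out 1 library gave log2 differences between -0.90 and -0.72 with exact permutation p between 0.00794 and 0.0159. With replicates 1 to 3 the difference was -0.71 and the exact permutation p was 0.1, the smallest that 3 against 3 allow. The ratio also moved with the GC contrast: in each group the 2 libraries with a contrast below 0 held the highest ratios. As no KSR23 library reached a WT library, the groups are necessarily apart within those 4 libraries and within the other 6. The sum of both genes, most of it Mt1, overlapped between the groups, at 374 to 646 CPM in WT and 280 to 567 CPM in KSR23.

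**Figure D3:**
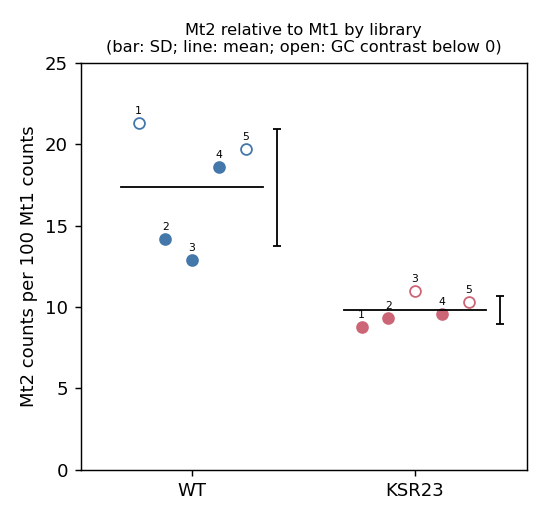
Mt2 counts per 100 Mt1 counts in each library (axis from 0), with replicate numbers, group means as lines and the SD as a bar; open circles are libraries with a GC contrast below 0. The KSR23 libraries lie between 8.76 and 11.0, all below the WT libraries at 12.9 to 21.3.

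Among the exporters, Slc30a1 (ZnT1, chr1:191906767-191913247, plus strand) carries zinc out of the cell and in enterocytes sits on the side facing the blood. It was at 9.16, 8.73, 9.10, 9.50 and 9.69 CPM in WT and at 2.56, 1.68, 7.31, 2.66 and 5.67 CPM in KSR23, from 52 to 330 counts per library. WT libraries were nearly equal, KSR23 libraries were spread over a wide range, and the groups did not overlap. The means were 9.24 ± 0.371 and 3.98 ± 2.40 CPM, and the log2 fold change was -1.22 (SE 0.40, adjusted p = 0.0190; 0.0436 under the quasi-likelihood test). KSR23 replicates 3 and 5, the highest of their group, were those with a GC contrast below 0. The log2 fold change was -1.86 (adjusted p = 2.27e-05) in the 6 libraries with a contrast above 0 and -0.67 (adjusted p = 0.371) in the other 4. With the sign of the contrast as a covariate it was -1.40 (adjusted p = 0.000114), in a fit that called 29.9% of all genes. The call was lost when WT replicate 4 or 5 or KSR23 replicate 1, 2 or 4 was left out (adjusted p 0.0525 to 0.0871), and with replicates 1 to 3 alone the log2 fold change was -1.20 (adjusted p = 0.442). An antisense gene, 1700034H15Rik, shares 7.54% of the 75-base stretches of Slc30a1 and had 1 to 19 counts per WT library and 3 to 14 per KSR23 library.

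Slc30a2 (ZnT2, chr4:134343181-134354484, plus strand), which loads zinc into secretory vesicles and granules, including those of Paneth cells, had higher values in KSR23. Its level was 72.7, 78.3, 38.9, 77.5 and 67.5 CPM in WT and 84.6, 104, 134, 95.5 and 136 CPM in KSR23. Every KSR23 library was above every WT library, and WT replicate 3 was well below the rest of its group. The means were 67.0 ± 16.3 and 111 ± 23.1 CPM, and the log2 fold change was 0.73 with a 95% interval of 0.17 to 1.28, and the adjusted p of 0.0567 (quasi-likelihood test 0.0570) left it without a call. Other settings placed it past the threshold: DESeq2 (0.70, adjusted p = 0.0429) and a filter of 5 counts in every library (0.71, adjusted p = 0.0474). So did the GC contrast sign as a covariate (0.71, adjusted p = 0.0124), in a fit that called 29.9% of all genes. Slc30a2 passed in the 4 libraries with a contrast below 0 (0.80, adjusted p = 0.0464) but not in the other 6 (0.64, adjusted p = 0.181). It also passed without WT replicate 2 (0.84, adjusted p = 0.0469) or KSR23 replicate 1 (0.86, adjusted p = 0.0196). Without WT replicate 3 it was 0.58 (adjusted p = 0.139), and with replicates 1 to 3 alone it was 0.80 (adjusted p = 0.56). Of the Paneth cell markers, Lyz1 rose by 3.24 on the log2 scale (adjusted p = 4.03e-19), Mmp7 by 2.88 (adjusted p = 9.22e-19) and Itln1 by 2.08 (adjusted p = 3.18e-09), while the defensins Defa24 and Defa17 stood at -0.08 and 0.03 (adjusted p = 0.908 and 0.965), and Ang4 fell by 0.85 (adjusted p = 0.00921). Their part in the level of Slc30a2 was not tested.

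Slc30a10 (ZnT10, chr1:185454848-185468762, plus strand) is known mainly as a manganese exporter. It was at 7.34, 13.8, 7.85, 14.2 and 8.30 CPM in WT and at 6.29, 5.87, 9.54, 3.79 and 6.18 CPM in KSR23. KSR23 replicate 3 lay above 3 of the WT libraries, and the other KSR23 libraries lay below all of WT. The log2 fold change was -0.70 (SE 0.35, adjusted p = 0.150), which became -0.90 (adjusted p = 0.0413) without KSR23 replicate 3, -1.07 (adjusted p = 0.0375) in the 6 libraries with a GC contrast above 0 and -0.12 (adjusted p = 0.908) in the other 4. With replicates 1 to 3 alone it was -0.38 (adjusted p = 0.864). The gene Gm2061, on the opposite strand, shares 7.97% of its 75-base stretches and had 2403 to 5075 counts per WT library and 784 to 5609 per KSR23 library, against 182 to 492 counts of Slc30a10, so reads of the 2 genes may not be separated.

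**Figure D4:**
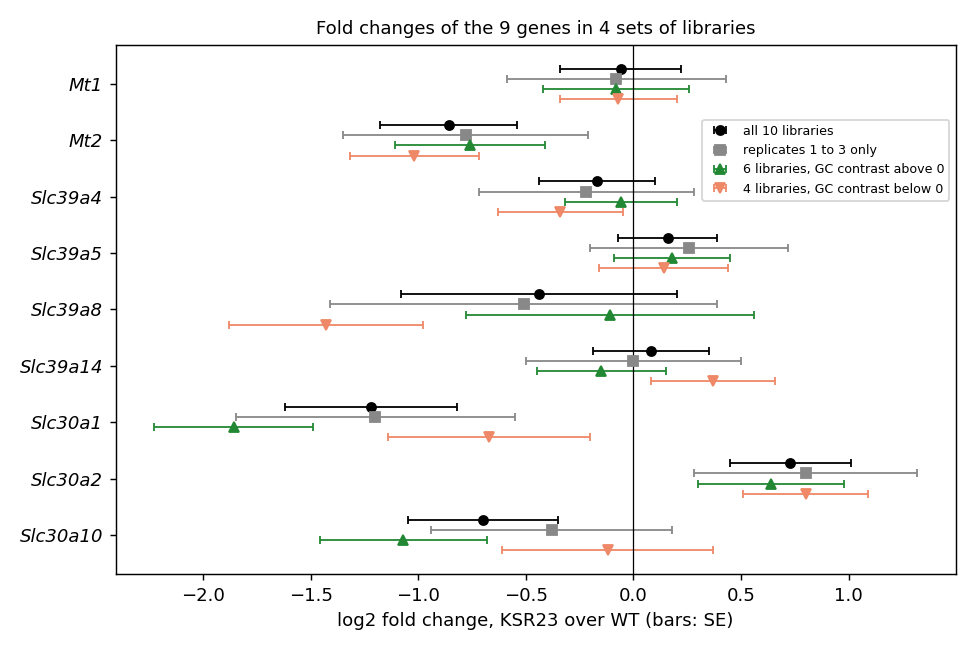
Log2 fold change of KSR23 over WT with its SE for the 9 genes, fitted on all 10 libraries (black circles), on replicates 1 to 3 (grey squares), on the 6 libraries with a GC contrast above 0 (green triangles) and on the 4 below 0 (orange triangles). Slc30a1 runs from -1.86 to -0.67 and Slc39a8 from -0.11 to -1.43 between the 6 and the 4 libraries, whereas Mt1 stays near 0 in each set.

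The 4 importers were not called in either direction. Slc39a4 (ZIP4, chr15:76612383-76617384, minus strand) takes up dietary zinc at the apical face of enterocytes, and its loss in humans causes acrodermatitis enteropathica. It was at 404, 628, 680, 533 and 426 CPM in WT and at 550, 586, 301, 507 and 427 CPM in KSR23. The lowest library was KSR23 replicate 3 and the highest WT replicate 3, with the rest intermixed. The means were 534 ± 121 and 474 ± 113 CPM, with a log2 fold change of -0.17, a 95% interval of -0.71 to 0.37 and an adjusted p of 0.733.

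Slc39a5 (ZIP5, chr10:128395931-128401229, minus strand), which lies on the basolateral face of enterocytes, had the smallest SE of the 9 genes. Its level was 131, 131, 109, 137 and 125 CPM in WT and 141, 125, 167, 130 and 143 CPM in KSR23. The means of 126 ± 10.8 and 141 ± 16.4 CPM gave a log2 fold change of 0.16, with a 95% interval of -0.29 to 0.61 and an adjusted p of 0.692.

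Slc39a14 (ZIP14, chr14:70303469-70351425, minus strand) carries zinc, iron and manganese. It was at 78.0, 102, 71.3, 95.6 and 82.4 CPM in WT and at 59.4, 77.7, 108, 87.6 and 121 CPM in KSR23. KSR23 libraries lay on both sides of WT. The log2 fold change was 0.08 (95% interval -0.46 to 0.62, adjusted p = 0.884). It took the opposite sign, -0.04, when only library totals were used for scaling.

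Slc39a8 (ZIP8, chr3:135825279-135888572, plus strand), a carrier of zinc and manganese, had the largest SE of the 9 genes. It was at 20.9, 59.4, 64.2, 41.8 and 31.5 CPM in WT and at 80.8, 6.42, 12.4, 52.1 and 8.95 CPM in KSR23. KSR23 replicates 1 and 4 stood in or above the WT range, and KSR23 replicates 2, 3 and 5 stood below every WT library. The means of 43.6 ± 18.3 and 32.1 ± 33.0 CPM gave a log2 fold change of -0.44 (SE 0.64, 95% interval -1.69 to 0.81, adjusted p = 0.703). It was -0.11 (adjusted p = 0.936) in the 6 libraries with a GC contrast above 0 and -1.43 (adjusted p = 0.0193) in the other 4. Single libraries moved it as well, to -1.06 without KSR23 replicate 1 and to between -0.26 and -0.13 without WT replicate 2 or 3 or KSR23 replicate 2, 3 or 5, with adjusted p from 0.227 to 0.926.

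Of 35 other genes of zinc and copper handling, 33 were tested, 6 were called higher and 4 lower, where 9.73% of all tested genes were called higher and 8.76% lower. Their median log2 fold change was 0.05, beside 0.03 for all genes. The CPM ranges of the groups did not overlap for 11 of the 33, where 14.4% of all genes did not overlap. These were Slc39a9, Slc39a10, Slc30a7, Mtf1, Klf4, Atp7a, Atp7b, Ccs, Sod1, Cox17 and Commd1. The quasi-likelihood test called 7 higher and 4 lower, beside 8.47% and 6.91% of all genes. With replicates 1 to 3 alone 0 were called by either test, beside 3.36% of all genes (likelihood ratio) and 0.812% (quasi-likelihood). At an unadjusted p under 0.05 there were then 4 of the 33 by the former and 6 by the latter, beside 13.2% and 11.8% of all genes. Slc39a12 had at most 2 counts in a library and Slc30a8, the transporter of insulin granules, had 0 in all libraries, and neither was tested. Slc39a7, which releases zinc from the endoplasmic reticulum, rose from 128 ± 18.8 to 217 ± 59.0 CPM (log2 fold change 0.76, adjusted p = 0.0338). Slc30a7, which carries zinc into the Golgi, rose from 59.0 ± 6.22 to 115 ± 30.5 CPM (0.96, adjusted p = 0.00477), with no overlap of the groups. Slc39a9 rose from 130 ± 30.5 to 261 ± 105 CPM (log2 fold change 1, adjusted p = 0.0170) and Slc39a10 from 8.01 ± 1.80 to 13.7 ± 2.39 CPM (0.78, adjusted p = 0.0422). Leaving out 1 library kept the call of Slc30a7 in all 10 fits and lost that of Slc39a9 without WT replicate 3 or KSR23 replicate 5. The calls of Slc39a7 and Slc39a10 were each lost in 6 of the 10 fits: Slc39a7 held without WT replicate 1 or 2 or KSR23 replicate 1 or 4, and Slc39a10 without WT replicate 1 or KSR23 replicate 1, 2 or 4, with adjusted p of the others up to 0.0991 and 0.121. With library totals alone neither passed (adjusted p = 0.071 for Slc39a7 and 0.0828 for Slc39a10), and with RLE size factors Slc39a10 did not (adjusted p = 0.0646). With the replicate number as a block, Slc30a7 (adjusted p = 0.0608), Slc39a9 (0.127), Slc39a7 (0.168) and Slc39a10 (0.166) all lost their calls, where 12.5% of all genes were called. In the main fit, 3 of 9 other ZIP genes and 1 of 6 other ZnT genes were called, each of them higher (9.73% of all genes were). None of the 4 tested genes of the list holding Mt3, Mt4 and the zinc-sensing Gpr39 and Tmem163 was called by either edgeR test. At an unadjusted p under 0.05 there were 2 of these 4 by the likelihood ratio test (30% of all genes), and DESeq2 called 1 (20.7% of all genes).

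Among 5 regulators, Klf4, a transcription factor of differentiated epithelium that acts on zinc importer genes, rose from 8.23 ± 1.21 to 25.5 ± 4.21 CPM (log2 fold change 1.63, adjusted p = 2.75e-07). Mtf1, which encodes the zinc-sensing factor itself, was at 17.6, 18.8, 12.8, 17.5 and 16.3 CPM in WT and at 18.9, 37.7, 27.4, 23.7 and 29.6 CPM in KSR23. The groups did not overlap, KSR23 replicate 1 being just above the highest WT library, but the log2 fold change of 0.73 did not pass the likelihood ratio test (adjusted p = 0.0616). It lay at the threshold by the quasi-likelihood test, which counted it as called (adjusted p = 0.05), and passed by DESeq2 (0.70, adjusted p = 0.0267). It also passed with the GC contrast sign as a covariate (0.72, adjusted p = 0.0148), a fit that called 29.9% of all genes. With replicates 1 to 3 alone it did not (0.81, adjusted p = 0.59). Stat3, which carries IL-22 and IL-6 signals, stood at 1.07 (adjusted p = 0.0887). It passed with the GC contrast sign as a covariate (1.09, adjusted p = 0.00023), in the 6 libraries with a contrast above 0 (1.16, adjusted p = 0.000628), without KSR23 replicate 3 (1.30, adjusted p = 0.00876) and without WT replicate 2 (1.37, adjusted p = 0.037), but not in the other 4 libraries (0.96, adjusted p = 0.156). The remaining members of that list, the glucocorticoid receptor gene Nr3c1 and Nfe2l2, stood at 0.05 and 0.30 without a call.

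Of the 9 copper genes, 1 rose and 4 fell, beside 9.73% and 8.76% of all genes. Atp7a, the pump that exports copper from enterocytes, rose from 24.3 ± 5.71 to 55 ± 10.2 CPM (log2 fold change 1.18, adjusted p = 0.000811). Cox17, a copper carrier that supplies cytochrome c oxidase, was lower in KSR23 with no overlap of the groups (log2 fold change -1.58, adjusted p = 3.02e-06). Ccs, which hands copper to superoxide dismutase, fell from 94.0 ± 9.76 to 45.4 ± 15.3 CPM (-1.05, adjusted p = 0.00322), also with no overlap. Atox1, which brings copper to the pumps, fell from 417 ± 115 to 230.0 ± 71.6 CPM (-0.86, adjusted p = 0.0293), and Commd1, which takes part in the traffic of the copper pumps, from 172 ± 30.9 to 99.2 ± 29.6 CPM (-0.80, adjusted p = 0.0346). When 1 library was left out, the calls of Cox17, Ccs and Atp7a held in all 10 fits, whereas that of Atox1 held only without WT replicate 2 or KSR23 replicate 3 (adjusted p up to 0.113) and that of Commd1 only without WT replicate 2 or KSR23 replicate 2 or 3 (up to 0.136). With the replicate number as a block, Cox17, Ccs and Atp7a kept their calls. Atox1 (adjusted p = 0.0551) and Commd1 (adjusted p = 0.0965) lost theirs. Of the enterocyte markers, Fabp2 and Lct were lower and Cdh1 higher in KSR23 at the same time. The part of these markers in the copper gene values was not tested.

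**Figure D5:**
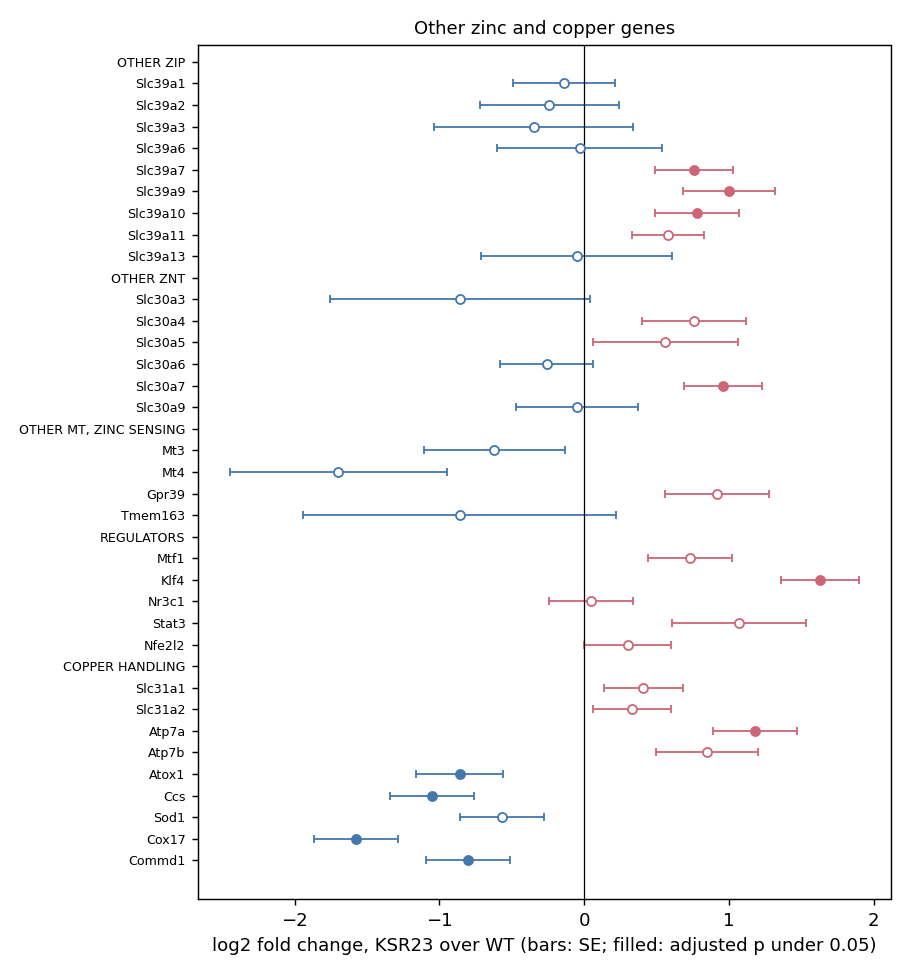
Log2 fold change of KSR23 over WT with its SE for the 33 other zinc and copper genes tested, in 5 lists; red lies above 0 and blue below, and filled points passed the likelihood ratio test. The 4 called transporters and Klf4 lie to the right, and of the copper genes Atp7a lies at 1.18 and Cox17 at -1.58.

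Over the 10 libraries, the profiles most like that of Mt1 among 9736 genes with a mean above 5 CPM were those of Fau, Rps7 and Ppib. Likeness was measured as the root mean square difference of log2 CPM, each gene centred on its own mean, and was 0.0813 for Fau and 0.102 for both Rps7 and Ppib, where the median gene was at 0.602. The profiles most like that of Slc30a1 were those of Fhit (0.149), Sytl3 (0.161) and 2810055G20Rik (0.203), where the median gene was at 1.08. These 3 genes had log2 fold changes of -1.08, -1.18 and -1.46. The 10 libraries share the GC axis and the group difference, so the likeness is a description of these libraries.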

How the data were processed

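Jejunum RNA of 5 WT and 5 KSR23 libraries was sequenced by the authors as single-end reads of 75 bases. Picogram amounts of total RNA went through oligo-dT priming, PCR amplification and transposase tagging before that. Reads carried no molecular identifiers, and the limit for a count of 0 is therefore one of counting alone. The deposited values were whole-number counts per gene. Per the labels and the study's methods, the authors mapped reads to mm10 with TopHat2 (2.1.0) and made the counts with HTSeq (0.6.1p1), with neither normalization nor pooling. Whether strand was used in counting is not given in the sources used here. The counter's own totals of unassigned reads were left out, and no column was left unused (0).

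Groups and replicate numbers came from the sample titles. Genes that reached 5 counts in any 1 library were scaled by TMM and tested with edgeR (4.0.16, R 4.3.3) by the likelihood ratio test of the study's methods, with Benjamini-Hochberg adjustment over all genes kept and a threshold of 0.05. Wald intervals are at 95%. Alternatives were the quasi-likelihood F test, DESeq2 (1.42.0), other scalings and filters, replicates 1 to 3 alone, the replicate number as a block, leaving out each library, and, added after seeing the data, 3 settings based on the GC contrast. The Mt2 to Mt1 ratio was tested by an exact permutation test. Total counts were 25.5 to 60.9 M per library. The SE rests on the spread between libraries as well as on counts. Slc39a8, with 199 to 5683 counts per library, had an SE of 0.64, and Slc30a1, with 52 to 330, one of 0.40. Scripts were tested on simulated data. Start sites were those of RefSeq (GRCm38.p6) and other positions those of GENCODE for GRCm38. Levels per kb used the longest transcript of the best APPRIS level.

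The named genes were all 9 members and every gene of the other lists called by the main test. The 3 genes whose profile is most like Mt1, and most like the member with the largest absolute fold change, were also named. Named without a call were the other regulators, Mt3, Mt4, Gpr39, Tmem163, the untested Slc39a12 and Slc30a8, Atp7b, Sod1, and genes sharing sequence with a member. Gpr39 and Atp7b lay near the threshold, at 0.92 and 0.85 (likelihood ratio test, adjusted p = 0.0558 and 0.0708). Markers were named to check the tissue. Members and lists were chosen with earlier results of these data known.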

Additional observations from a re-analysis of the deposited data

Results flagged for a closer look

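Of 20 groups of 5 libraries scanned for a value far from the rest, 1 was marked, the number expected by chance. Slc30a2 in WT replicate 3 stood at a log2 CPM of 5.28, where the nearest WT library stood at 6.08, a gap that took a share of 0.787 of the group's range (the limit for 5 libraries is 0.71).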

How the results depend on the processing

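Of the 9 genes, 2 were called with all 10 libraries, 1 by the quasi-likelihood test, 0 with replicates 1 to 3 alone by either test, and from 0 (without WT replicate 4 or 5 or KSR23 replicate 2 or 4) to 3 when 1 library was left out. Of the 33 other zinc and copper genes, 10 were called with all libraries, 0 with replicates 1 to 3 alone by either test, 16 with the sign of the GC contrast as a covariate, and 5 to 11 when 1 library was left out. Over all genes, 3261 were called, against 579 and 140 with replicates 1 to 3 by the likelihood ratio and quasi-likelihood tests. With the GC covariate 5268 were called, and 2106 in the 4 libraries with a GC contrast below 0. When 1 library was left out, calls over all genes ran from 2370 (13.5% of those tested) to 3802 (21.6%). The cause of these shifts was not tested. The Mt2 to Mt1 log2 ratio differed by -0.71 with replicates 1 to 3 alone and by -0.90 to -0.72 when 1 library was left out.

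The sign turned, or the value came to 0.00, for Mt1 (0.06, 0.12 and 0.03 without WT replicate 3, KSR23 replicate 1 and KSR23 replicate 4) and for Slc39a14 (-0.04 with library totals alone, 0.00 with replicates 1 to 3 by both tests, -0.15 in the 6 libraries with a GC contrast above 0 and -0.05 without KSR23 replicate 5), none of them called. Over the fits without 1 library, Mt1 ran from -0.13 to 0.12 and Slc39a14 from -0.05 to 0.25. Same-numbered libraries deviated together for numbers 2, 4 and 5 (correlations 0.41, 0.36 and 0.49) but in opposite directions for numbers 1 and 3 (-0.74 and -0.69), and 1 of the 5 numbers correlated best with its own, so the numbers were not taken as pairs. With the replicate number as a block, 1 of the 9 genes (Slc30a1) and 5 of the other list (Mt4, Klf4, Atp7a, Ccs and Cox17) were called. Over all genes 2202 were called (12.5%). The Mt2 to Mt1 log2 ratio differed by -0.80 (exact permutation of signs, p = 0.0625, the smallest that 5 pairs allow). Of the fold changes of the 9 genes over all alternatives, 160 kept their direction and their side of the threshold. A call was lost in 21 and gained in 9, and 8 changed sign or came to 0.00. Only Mt2 and Slc30a1 had a call to lose, so all 21 losses were theirs, and the 160 include the 7 genes without a call. When 1 library was left out, Mt2 lost its call in 8 of 10 fits and Slc30a1 in 5 of 10.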
